A study of Homo sapiens with 2 samples.

Results

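The large subunit of the cytosolic ribosome is described here by the ribosome footprints on the messages of its own proteins. The genes were those of a fixed list of large subunit ribosomal protein symbols that are protein-coding rows of the count table, and all 45 were found, out of 19994 protein-coding rows and 61554 rows in all. No measured value entered that rule, but the genes and gene lists were chosen with earlier results of these data known. Ribosome profiling sequences the pieces of RNA that ribosomes shield from nuclease, so a gene is counted once for each such piece read from its mRNA. There were 2 libraries, each from 1 culture of HEK293T, a human embryonic kidney line labelled wild type. Both cultures received the plasmid pCMV-Nes--chPylRSIPYE (TetRS), which carries the synthetase TetRS and 12 U6-driven cassettes for a tRNA named CM15CGA, and both were given TetBu. The culture with the reporter also received a plasmid for mCherry and EGFP, joined by T2A, with the codon TCG at 1 named position of EGFP, and the culture without the reporter did not. Expression lasted 30 h in dishes of 15 cm, and cells were harvested after 1 min in cycloheximide at 0.1 mg per mL, which arrests ribosomes on their messages. The tRNA was given to both, so by design the contrast is between presence and absence of the reporter plasmid. Its amount may still have differed, since TetRS, carried on the plasmid of the tRNA, had 30286 counts with the reporter against 59723 without it. The part of such a difference in the results was not tested. Each culture is a transient transfection, and each group has 1 library, so there is no replicate check, no p-value is given, and every difference is one between these libraries.

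Large subunit proteins wrap the ribosomal RNA that forms the peptide bond. They build the flexible stalk that recruits elongation factors, the wall and rim of the tunnel through which the new chain leaves, and the contacts with the small subunit. Their messages are among the most translated of growing cells. Most begin with a terminal oligopyrimidine tract, or TOP, a cytosine followed by an unbroken run of C and T letters, through which mTOR and the RNA-binding protein LARP1 govern their translation. Many of the genes host small nucleolar RNAs (snoRNAs, guides of rRNA modification) in their introns, and nearly all have left processed pseudogenes across the genome.

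The start of the message is shown because it is the sequence feature that these genes share. RefSeq promoter sequences (GRCh38.p14) matched 38 of the 45 symbols, with 50 annotated starts. RPL5, RPL7, RPL8, RPL23, RPL23A, RPL30 and RPL37 had no entry. Each line gives 10 bases before an annotated start and 15 from it on, 5′ to 3′ on the strand of the gene, and capitals mark the pyrimidine run that begins with C at the start itself, which in RPL7A goes on past the window. RPL13A, RPL18, RPL35 and RPL31 were among the highest measured ratios with over without the reporter, RPL10 and RPL12 were among the lowest, RPLP2, RPL34 and RPL7A had the most counts, and RPL15 and RPL19 had no tract at their annotated starts.
RPL13A, chr19:49487598-49487622, plus strand: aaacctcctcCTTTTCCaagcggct
RPL18, chr19:48619164-48619188, minus strand: agcccgttctCTCTTTCCggacctg
RPL35, chr9:124861943-124861967, minus strand: cgcctacttcCTCTTTCCCTCggag
RPL31, chr2:101002279-101002303, plus strand: ccttcgcgctCTTCCTTTCCaactt
RPL10, second of 3 starts, chrX:154398367-154398391, plus strand: ggaggagcgcCTCTTTCCCTTCggt
RPL12, chr9:127451392-127451416, minus strand: cgatttccggCCTCTCggctttcgg
RPLP2, chr11:809957-809981, plus strand: tcggcgccttCCTTTTCCTCCCTgt
RPL34, first of 2 starts, chr4:108620566-108620590, plus strand: cttttttcttCCTCTTCCggggacg
RPL7A, chr9:133348208-133348232, plus strand: attccctttcCTTTCTCTCTCCTCC
RPL15, first of 3 starts, chr3:23916535-23916559, plus strand: tggggcctgctggaggagcttcacg
RPL19, second of 2 starts, chr17:39200313-39200337, plus strand: agctctttcctttcgctgctgcggc

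A C at the start followed by at least 4 more C or T letters, on the strand of the gene, was found for 28 of the 38 genes (73.7%). Among all 15229 protein-coding symbols with a promoter entry, 962 (6.32%) had it at any start. Counted by start, the shares were 56.0% of 50 and 4.57% of 21471. The small subunit genes had it at 19 of 25 (76.0%), whereas factors that assemble the large subunit had it at 2 of 33 (6.06%) and large subunit proteins of the mitochondrial ribosome at 3 of 42 (7.14%). The second start of RPL19 lies inside a longer run of C and T letters, so a missing tract here concerns the annotated start. A run of 6 or more pyrimidines anywhere in the window of 25 bases was present in 34 of the 38 genes (89.5%), against 32.3% of all coding symbols.

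The library with the reporter held 2519301 counts and the other 3151403, of which 13.7% and 9.77% lay on coding genes. The plasmid rows behaved by their labels for the reporter, with 271843 counts against 399, while TetRS had 30286 against 59723. Of 4 neuron-like genes listed for HEK293 cells, NEFL had 106 counts against 49 and NEFM 56 against 50, but INA had only 3 against 7 and NEFH 1 against 0, and the embryonic kidney genes had 25 counts in all against 32. Markers of other cells were sparse and, summed by list, lower with the reporter, at 5 counts against 20 for 5 leukocyte genes, 37 against 62 for 4 fibroblast genes and 0 against 16 for 4 erythroid and serum genes, with HBA1, HBA2 and PTPRC at 0 in both. Single markers went both ways, with ACTA2 at 23 against 9, CD14 at 3 against 0 and LYZ at 1 against 0. Their part in the results below was not tested.

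All 45 large subunit genes had footprints in both libraries. Together they held 14909 counts with the reporter, or 4.31% of coding counts (exact 95% interval 4.24 to 4.37%). Without it they held 12254 counts, or 3.98% (3.91 to 4.05%). Set against all other coding counts, the pooled log2 ratio with over without the reporter was 0.12 (0.08 to 0.15). Those other counts include mitochondrially encoded genes, without which the shares lay closer together, at 4.81% and 4.59%. The small subunit genes, at 3.51% against 3.31%, had a pooled ratio of 0.09 (0.05 to 0.13), an interval that overlaps the first. These intervals cover counting error only. Reads that PCR copied from 1 molecule count separately here, so the intervals may be too narrow. Footprint counts without matched RNA libraries follow the amount of an mRNA and its translation together, and fewer cells cannot be told apart from fewer counts per cell.

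The gene-wise ratios were centred close to those of the coding genes as a whole. Of the 45 genes, 39 reached a summed count of 100, the minimum for a measured gene, and RPL7, RPL17, RPL21, RPL22, RPL30 and RPL36A did not. Values are log2 ratios of counts scaled by TMM, a method that sets a library factor from the bulk of genes. The median of the 39 was 0.21, against 0.11 for all 1060 measured coding genes, and 20 of the 39 lay above that coding median, with 19 below it. None of the 39 met the 2-fold rule, which asks for a ratio of at least 2-fold and an interval that leaves out 0. Among all measured coding genes 2.83% met it as higher and 0.566% as lower. At a threshold of 1.5-fold, 5 of 39 were higher (RPL13A, RPL18, RPL19, RPL31 and RPL35) and 5 were lower (RPL10, RPL12, RPL15, RPL23 and RPL32), against 14.7% and 6.23% of all measured genes. Under other scalings some of these genes fell short of 1.5-fold and others passed it.

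The genes differed among themselves by more than counting error. The SD of the 39 log2 ratios was 0.42, where counting error alone amounts to 0.16, and the same figures over all measured coding genes were 0.46 and 0.23. The interval lay above the coding median in 11 of 39 genes and below it in 10, while 17.8% and 16.1% of all measured genes did so. Deeper counts give narrower intervals. Where the summed count reached 300, 10 of 27 large subunit genes lay above and 6 below, against 29.1% and 20.9% of 234 coding genes. Under this shared minimum the shares were nearer to the background, but depth above it was not matched. Scaling by total counts raised every ratio by 0.46, which put 34 of the 39 above 0 in place of 24. Under that scaling 6 genes met the 2-fold rule as higher and none as lower, while 17.9% of all measured genes were higher, so the side of 0 on which a gene lies depends on the scaling and its place relative to other coding genes does not.

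**Figure D1:**
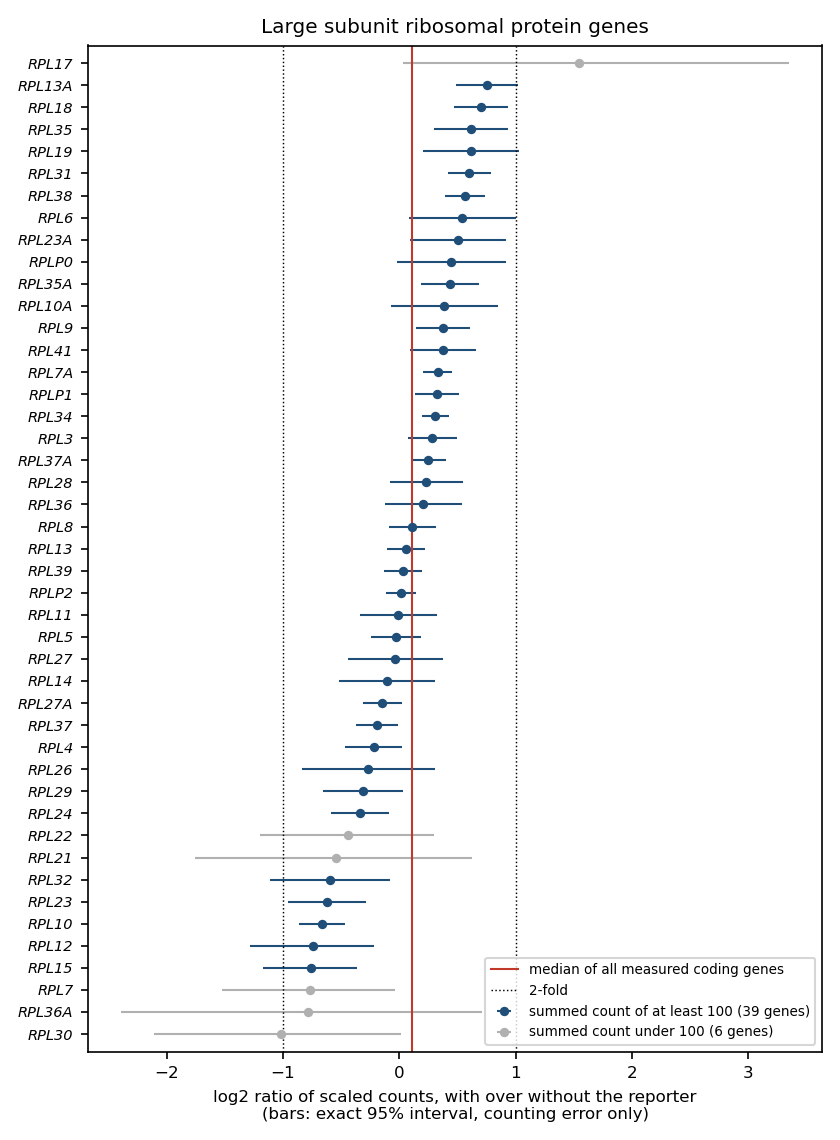
Log2 ratio of TMM-scaled counts, with over without the reporter, for each of the 45 genes, ordered by ratio, with bars for the exact 95% interval of counting error. Blue points are the 39 measured genes and grey points the 6 with a summed count under 100. The red line marks the coding median of 0.11 and dotted lines mark 2-fold. Measured genes run from RPL15 at -0.76 to RPL13A at 0.76, and none lies past 2-fold.

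RPL13A, which outside the ribosome takes part in silencing inflammatory messages, had the highest measured ratio. Its gene (chromosome 19, 49487510 to 49493057) had 335 counts with the reporter against 181, or a log2 ratio of 0.76 (0.49 to 1.02). RPL18, on the same chromosome, followed with 430 counts against 241 (0.70, 0.47 to 0.94). At the other end RPL15, on chromosome 3 (23916591 to 23924374), had 86 counts against 133 (-0.76, -1.17 to -0.36). The intervals of RPL13A and RPL15 lie far apart, on opposite sides of the coding median. RPL38, which is known for its part in translating Hox messages in the embryo, had 755 against 466 (0.56, 0.40 to 0.73). It came just below the genes that passed 1.5-fold.

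The stalk and its base gave unlike ratios. RPLP0 anchors the stalk, and RPLP1 and RPLP2 are its acidic arms. RPLP2 had 1066 counts with the reporter against 961 (0.02, -0.11 to 0.14). RPLP1 had 544 against 397 (0.32, 0.13 to 0.51). RPLP0 had 97 against 65 (0.45, -0.02 to 0.92). The base protein RPL12 had 51 against 78 (-0.75, -1.28 to -0.22), the only one of the 4 with an interval below the coding median. Its gene holds SNORA65, with 319 counts against 197, and 50 pseudogene rows carry its name; the part of either in its ratio was not tested.

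The partners of the 5S rRNA had nearly equal scaled counts in both libraries. RPL5 and RPL11 travel together with that rRNA, and outside the ribosome they hold back MDM2, the ligase that degrades p53. RPL5 had 360 counts against 335 (-0.03, -0.25 to 0.19), and RPL11 had 161 against 148 (-0.01, -0.34 to 0.32). Both intervals include 0 and the coding median.

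Proteins close to the peptidyl transferase centre, where the peptide bond forms, were spread. RPL3 had 438 counts against 328 (0.29, 0.08 to 0.50), and RPL8 had 444 against 375 (0.11, -0.09 to 0.31), at the coding median. RPL10, which joins the subunit late and completes the site that binds the incoming tRNA, had 362 against 524. Its log2 ratio was -0.67 (-0.86 to -0.47), the lowest of any large subunit gene with a summed count over 300. The gene lies on chromosome X (154389955 to 154409168), holds SNORA70 at 0 counts and has 19 named pseudogene rows with 6 counts against 3. Adding those rows leaves its ratio within its interval.

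Along the exit tunnel, measured wall genes had a median of -0.09 and rim genes one of 0.60. Of the wall proteins, RPL4 had 272 counts against 289 (-0.22, -0.46 to 0.02) and RPL39, a very small protein, had 669 against 596 (0.03, -0.13 to 0.20). RPL17 had only 16 against 5, with a ratio of 1.55 and an interval of 0.03 to 3.35, and would meet the 2-fold rule were its 21 counts not under the minimum. The locus of RPL17 also holds the read-through gene RPL17-C18orf32, listed at 0 in both libraries. The rim is where the signal recognition particle and chaperones dock. Of its measured genes, RPL35 had 220 counts against 131 (0.62, 0.30 to 0.94), RPL31 had 636 against 382 (0.60, 0.42 to 0.79) and RPL19 had 136 against 81 (0.62, 0.21 to 1.03). RPL23A had 129 against 83 (0.50, 0.09 to 0.92). RPL26 was the exception with 52 against 57 (-0.26, -0.84 to 0.30), and RPL22 had 29 against 36. Of the 5 measured rim genes, 4 lay above the coding median and 3 met the 1.5-fold rule as higher, where 14.7% of all measured genes met it. Pooled over all 6, the rim had 1202 counts against 770, a log2 ratio to other coding counts of 0.47 (0.34 to 0.61). RPL31 gave 1018 of those counts, and the difference between rim and wall was not tested, because genes are not replicates. The groups by position, like the other lists, were chosen with earlier results of these data known.

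Proteins that bridge the subunits or line the exit site of the tRNA were few and uneven. RPL24 had 256 counts against 295 (-0.34, -0.58 to -0.09). RPL41, the shortest protein of the ribosome, had 250 against 176 (0.37, 0.09 to 0.66). RPL30 and RPL36A were nearly uncounted. RPL30 had 13 against 24 (-1.02, -2.11 to 0.01), an interval that includes 0 but lies below the coding median. RPL36A had 7 against 11 (-0.78, -2.39 to 0.71), too few counts to detect a difference. RPL36A shares its locus with the read-through gene RPL36A-HNRNPH2, listed at 0, and on the other strand with GLA, which had 81 against 44.

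**Figure D2:**
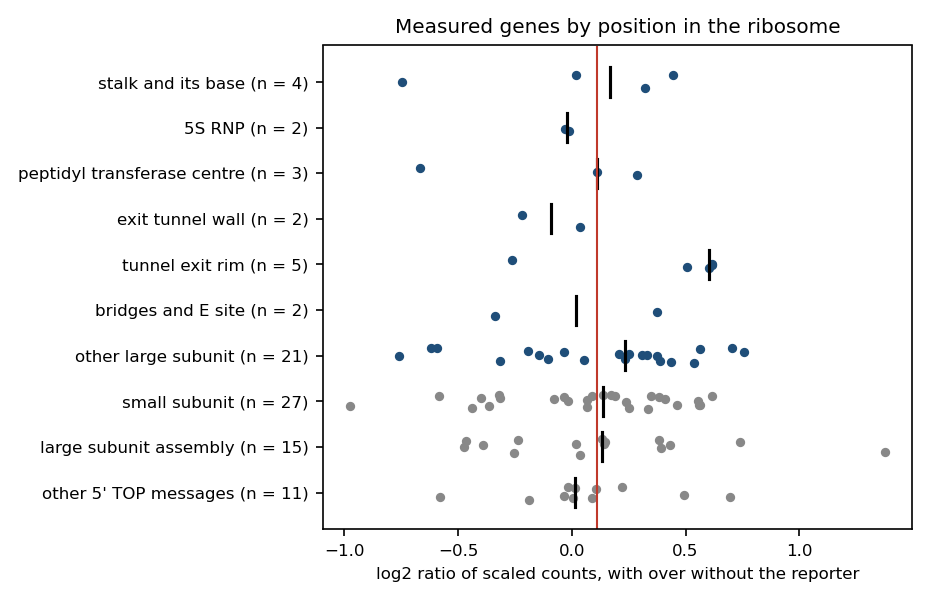
Log2 ratio of scaled counts, with over without the reporter, for each measured gene (points), by position in the large subunit (blue) and for 3 other gene lists (grey). Black bars are list medians and the red line is the coding median of 0.11. The tunnel exit rim has 4 of its 5 points near or above 0.5, while the other positions straddle the line or lie on its left.

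The 23 remaining large subunit genes had 21 measured members with a median of 0.23, 12 of them above the coding median. RPL7A had 1289 counts against 936 (0.33, 0.21 to 0.45), and RPL34 had 1417 against 1043 (0.31, 0.19 to 0.43). These are the most counted of all 45, and their intervals lie above the coding median. RPL9 (377 against 265, 0.38) and RPL35A (326 against 220, 0.44) also lay above it. RPL35A is one of the genes mutated in Diamond-Blackfan anaemia, an inherited failure of red cell production. RPL6 had 105 against 66 and RPL10A 99 against 69, with ratios of 0.54 and 0.39 whose intervals include the coding median. RPL37A (821 against 630), RPL28 (192 against 149), RPL36 (172 against 136) and RPL13 (666 against 585) lay between 0.05 and 0.25. Of these only RPL13 was below the coding median, with an interval that includes it. On the opposite strand RPL6 overlaps PTPN11 (42 against 28), RPL28 overlaps UBE2S (32 against 29) and RPL36 overlaps MICOS13 (35 against 36) and LONP1 (32 against 33). The strand setting of the counting is not stated, so reads from such pairs cannot be told apart.

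Below the coding median in that group, RPL23, which holds the binding site of the anti-association factor EIF6, had 127 counts against 178 (-0.62, -0.96 to -0.28). RPL32 had 56 against 77 (-0.59, -1.11 to -0.08), and its pseudogene rows held another 31 counts in each library. RPL29 (134 against 152), RPL37 (494 against 515) and RPL27A (571 against 576) had ratios of -0.31, -0.19 and -0.14, with intervals below the coding median. RPL14 (103 against 101) and RPL27 (107 against 100) were at -0.10 and -0.03. The barely counted RPL7 had 27 against 42 and RPL21 had 12 against 16.

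Footprints were spread very unevenly over the 45 genes, although each ribosome needs these proteins in fixed amounts. Summed counts ran from 18 for RPL36A to 2460 for RPL34, with a median of 351. By counts, which make no allowance for length, the 5 leading genes, RPL34, RPL7A, RPLP2, RPL37A and RPL39, held 35.3% of the large subunit counts with the reporter and 34.0% without it. The authors' deposited RPKM divides counts by gene length and library size and so allows levels of different genes to be set side by side. RPLP2 had the highest RPKM in both libraries, at 227 with the reporter and 212 without it. RPL7A (200.4 and 151.4), RPL34 (141 and 108) and RPL39 (109 and 101) followed in the same order in each. RPL41 came next with the reporter at 78.5, and RPL8 came next without it at 62.9. Median RPKM over the 45 genes was 23.2 and 20.3.

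At the low end RPL36A had an RPKM of 0.614 with the reporter and RPL17 had 0.738 without it. RPL30 (1.13 and 2.18), RPL21 (1.90 and 2.64) and RPL22 (2.16 and 2.79) were also low in both. The highest RPKM was 369 times the lowest with the reporter and 288 times without it. Those lowest values rest on 7 counts for RPL36A and 5 for RPL17, both genes under the minimum summed count of 100. Among measured genes the lowest RPKM was that of RPL14, at 4.16 with the reporter and 4.24 without it. Both libraries ordered the genes nearly alike, with a Spearman correlation of RPKM of 0.96 across the 45 genes, which share their lengths and sequence in both libraries and are not independent replicates. The lengths used for RPKM limit these levels. They ran from 1108 for RPL41 to 8626 for RPL14 and covered a median of 52.3% of the genomic span of the gene, up to 100% for RPL13, RPL18 and RPL23, so they include stretches that a spliced message of these short genes does not hold. Coding lengths were not used here.

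Genes with many pseudogenes included most of those with hardly any counts. The count table held 809 pseudogene rows named after one of the 45 genes, from 1 for RPL28 and RPLP2 to 91 for RPL23A. The 15 genes with 5 or fewer such rows all had a summed count of at least 162, with a median of 551. The 12 genes with 20 or more had a median of 131, from 18 to 2225, and 5 of the 6 genes under the minimum of 100 were among them. RPL30 was the other, with 15. RPL7A, with 38 pseudogene rows and 2225 counts, goes against that order, as do RPL31 (34 rows, 1018 counts) and RPL5 (35 rows, 695 counts). Over all 45 the Spearman correlation between the number of rows and the summed count was -0.31, and over the 32 small subunit genes it was -0.28, in each case across genes of the same libraries. The pseudogene rows themselves had 251 counts with the reporter against 198, which is 1.68% and 1.62% of the counts on the genes, and 683 of the 809 had none. The sources used here do not give how reads with several matches were treated, so the levels of genes with near-identical copies are uncertain, and the part of the copies in their low counts was not tested. Of the genes under the minimum, RPL17, RPL22 and RPL36A also overlap a coding gene on the same strand, while RPL7, RPL21 and RPL30 do not. RPL26 (109 counts) and RPL36 (308 counts) have such an overlap too, and its part in the counts was not tested. The log2 ratios of the 39 measured genes had a correlation of -0.04 with the number of pseudogene rows.

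**Figure D3:**
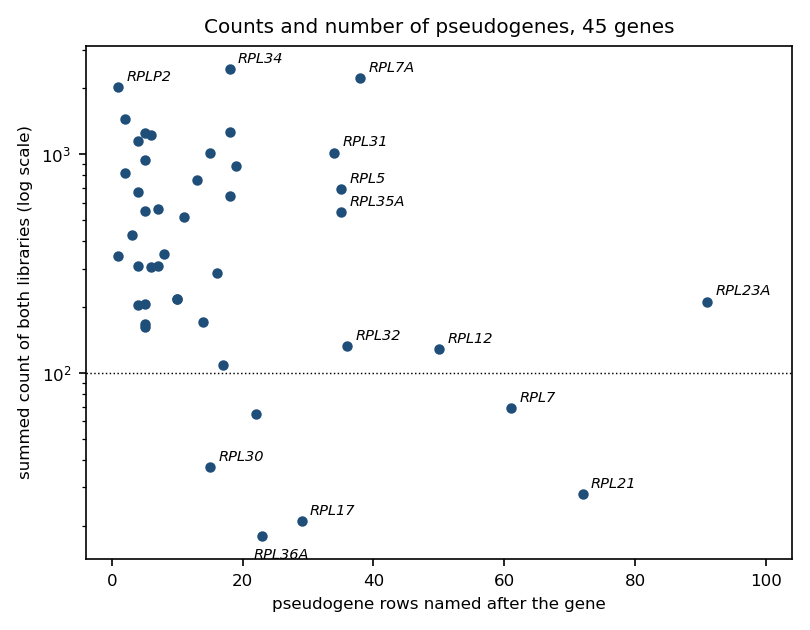
Summed count of both libraries (log scale) against the number of pseudogene rows that carry the name of the gene, 1 point for each of the 45 genes. The dotted line is the minimum of 100 counts. RPL21, RPL7, RPL22, RPL17 and RPL36A, with 22 to 72 rows, lie under the line together with RPL30, while RPL7A with 38 rows has 2225 counts.

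Small RNA genes lay within the listed bounds of 21 of the 45 genes, 42 in all, of which 5 had any count. Measured genes that hold one had a median log2 ratio of 0.03, with 6 of 18 above the coding median. Those that hold none had a median of 0.32, with 14 of 21 above it. The 5 genes whose small RNA had counts, RPL3, RPL5, RPL12, RPL27A and RPL37, had ratios from -0.75 to 0.29 and a median of -0.14. Their small RNAs together had 10224 counts with the reporter against 8743. The groups with and without a small RNA gene overlapped widely, from -0.75 to 0.76 in the first and from -0.76 to 0.70 in the second, and the part of small RNA reads in the ratios was not tested.

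Ratios of genes with and without a pyrimidine tract at the annotated start overlapped over nearly their whole range. The 25 measured genes with a tract had a median of 0.23, from -0.75 to 0.76, with 14 above the coding median. The 9 measured genes without it had a median of 0.29, from -0.76 to 0.62, with 5 above. That group depends on the annotated starts and on the rule. RPL3 had a run of 4 letters at its start, and RPL4, RPL9 and RPL10A had runs of C and T letters further into the window. RPL10 and RPL13A, near opposite ends of the ratios, both start with a tract, as the sequences above show, and RPL15 and RPL19, also far apart, do not at the annotated starts. The Spearman correlation between listed length and log2 ratio was -0.18 over the 39 genes and -0.17 over all 1060.

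The 45 genes lie on 18 chromosomes, with 6 each on chromosomes 3 and 17. Of the 6 on chromosome 3, RPL35A was the only one above the coding median, and RPL14, RPL15, RPL24, RPL29 and RPL32 lay below it. All 49 measured coding genes of that chromosome had a median of 0.09, with 46.9% above the coding median. The 4 on chromosome 19, RPL13A, RPL18, RPL28 and RPL36, all lay above it, as did 70.1% of the 87 measured coding genes there, whose median was 0.25. On chromosome 17, RPL19, RPL23A and RPL38 lay above and RPL23, RPL26 and RPL27 below. These chromosomes were picked after the values were seen, and no test was made.

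Other genes of the ribosome and its assembly had medians close to the coding median. The 27 measured small subunit genes of 32 had a median of 0.14, with 14 above the coding median and none past 2-fold, between RPS26 with 136 counts against 244 (-0.98, -1.29 to -0.67) and RPS27 with 153 against 91 (0.62, 0.23 to 1.01). RPL22L1, a paralog of RPL22, had 85 against 71 (0.13), with an RPKM of 14.4 and 12.5 where RPL22 had 2.16 and 2.79. The RPL22 values rest on 29 and 36 counts, under the minimum, and on a listed length of 4665. With 22 pseudogene rows and a same-strand overlap as well, its level and this comparison are uncertain. RPL7L1 had 33 counts against 35. The paralogs RPL3L, RPL10L, RPL26L1, RPL36AL and RPL39L had 3 counts or fewer in each library.

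Of 40 factors that assemble the large subunit, 15 were measured, with a median of 0.13 and 8 above the coding median. BCCIP met the 2-fold rule as higher at 131 counts against 46 (1.38, 0.88 to 1.90). GNL3, the nucleolar GTPase nucleostemin, was lowest at 60 against 76 (-0.47, -0.99 to 0.03). Among 17 other messages listed for their TOP, 11 were measured and 3 lay above the coding median, with a median of 0.01, between EEF1B2, a subunit of the exchange factor of EEF1A1, at 0.70 and BTF3, which binds new chains at the tunnel exit, at -0.58. None of these passed 2-fold. Large subunit proteins of the mitochondrial ribosome had 1028 counts against 953, a pooled log2 ratio to other coding counts of -0.06 (-0.19 to 0.07), with 2 of 49 genes measured.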

How the data were processed

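The genes and gene lists were chosen with earlier results of these data known. Groups were taken from the sample titles. Counts per gene are as deposited by the authors; TopHat2 2.0.12, HTSeq 0.9.1 and the builds GRCh37 and hg19 are listed, with no role, in the submitters' processing notes. No source used here states the strand handling. The coordinates of all 45 genes overlap their RefSeq GRCh38.p14 loci and are printed as the files give them. The deposited RPKM values, made by the authors, equal the count over listed length and a library size of 2873483 and 2762965 with and without the reporter. Those sizes are not the count totals of the libraries, and log2 ratios of RPKM lie 0.08 above those of TMM-scaled counts.

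Scaling used TMM over all rows in edgeR 4.0.16 and R 4.3.3. Ratios carry exact Clopper-Pearson intervals at 95%. Measured genes had a summed count of at least 100. The code was tested on simulated counts. Named genes were all 45, and in each other list the highest, the lowest and any past 2-fold; 1 gene that this rule takes is not reported here. Density per protein residue was planned but protein lengths were not used here, so RPKM took its place. Alternatives were DESeq2 1.42.0 size factors, total or coding counts, minimums of 20, 300 or none, RPKM plus 0.1, a 1.5-fold threshold, leaving out genes with a small RNA gene, and adding pseudogene counts. The call against the coding median and its comparison at a minimum of 300 counts were added after the data were seen. So were the groups by pseudogenes, tract and small RNA genes, and leaving out genes with at least 20 pseudogenes. Intervals were computed in scipy 1.17.1 under Python 3.11.15.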

Additional observations from a re-analysis of the deposited data

Results flagged for a closer look

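Counts on small RNA genes inside the large subunit loci lie outside the comparison and exceeded what a count of 0 allows. SNORD83A in RPL3 had 9379 counts over both libraries (4791 with the reporter and 4588 without it). SNORA3B in RPL27A had 5131 (2490 and 2641) and SNORA66 in RPL5 had 3684 (2501 and 1183). SNORA65 in RPL12 had 516 (319 and 197) and SNORD72 in RPL37 had 257 (123 and 134). All of these but SNORD72 had more counts than their host genes, and the other 37 small RNA genes in these loci were at 0. Pseudogenes named after large subunit genes had 449 counts in all, of which RPL32 gave 62, RPL31 52 and RPL23A 50.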

How the results depend on the processing

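No paired analysis was possible because each group has 1 library. The median of the large subunit genes stayed above the coding median, by 0.09 as reported and by 0.02 to 0.21 under every alternative run, with the highest value where genes holding a small RNA gene were left out. That last setting left 14 of 21 genes above the coding median. DESeq2 size factors and total or coding counts shift every gene alike, so they could not change this difference between medians. The count at 2-fold was 0 and 0 as reported. It became 6 higher under total counts and 1 higher (RPL17) at a minimum of 20 and with no minimum. At 1.5-fold it was 5 higher and 5 lower. Among all coding genes kept, 6.69% were higher and 6.54% lower at a minimum of 20, and 4.97% and 5.78% with no minimum. Under DESeq2 size factors RPL38 (0.640) and RPL6 (0.613) passed 1.5-fold, while RPL23 (-0.544) and RPL32 (-0.516) did not. Scaled by coding counts, RPL19 (0.578), RPL31 (0.566) and RPL35 (0.578) fell short of 1.5-fold. With pseudogene counts added, RPL23 (-0.583) and RPL32 (-0.444) fell short of it. The share of coding counts with and without the reporter was 4.81% and 4.59% without mitochondrially encoded genes, 0.592% and 0.389% of all counts, 2.09% and 1.75% without genes holding a small RNA gene, and 3.46% and 3.26% without genes with at least 20 pseudogenes. Adding pseudogene counts gave 4.38% with the reporter, and a fold of 180 between the highest and lowest RPKM without it. Single genes stayed within their intervals except under total counts, where 33 of 39 moved. Count minimums and leaving out genes do not alter the ratio of a gene, so those settings could not move any. Depth limits the 6 genes under 100 counts. Density per residue was not run.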
